A study of Bos taurus with 2 samples.

Results

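Clusters 5 and 8 were the groups of cultured bovine satellite cells with the highest and second highest average PAX3 levels among the 15 clusters deposited with this single-cell RNA series, cluster 8 ranking first. The members were all cells of each cluster. No cell list was used; each cell's cluster was worked out from the deposited cluster averages, which are whole UMI sums once rescaled, and all 19096 cells received a cluster with 0 of 252240 gene and cluster sums left unmatched. Cluster 5 held 1641 cells and cluster 8 held 1241 cells. All cells came from the longissimus muscle of 1 Holstein bull calf aged 2 weeks, were freed with pronase, enriched by differential centrifugation and grown for 1 week in serum-containing medium without any treatment. They were run as 2 libraries, called replicate 1 and replicate 2, made from the same cell preparation. The spread between replicates is therefore technical, and nothing here measures the spread between animals.

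Satellite cells are the stem cells of skeletal muscle. PAX3 and PAX7 are the paired-box transcription factors that mark them, MYF5 and MYOD1 mark their activation and commitment to the myoblast fate, and MYOG begins terminal differentiation. Activated cells enter the cell cycle, which requires nucleotide supply, origin licensing, DNA replication and mitosis, and they leave it again through inhibitors of cyclin-dependent kinases such as the p21 protein encoded by CDKN1A. The comparison of clusters 5 and 8 asks what separates 2 states that the study took as satellite cells for their PAX3 signal, with cluster 8 placed at the start of the inferred paths and cluster 5 after it on one of them.

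Replicate 1 gave 859 cells of cluster 5 and 664 of cluster 8, and replicate 2 gave 782 and 577. Cluster 5 therefore made up 8.64% of the cells of replicate 1 (95% exact binomial interval 8.10 to 9.21) and 8.54% of replicate 2 (7.97 to 9.13), and cluster 8 made up 6.68% (6.20 to 7.19) and 6.30% (5.81 to 6.82). Intervals cover counting error only. The median cell held 14057 and 15028 UMIs in cluster 5 and 12759.5 and 13509 in cluster 8, and the UMI sums per cluster and library ran from 8151149 to 12735621. Neither cluster held a cell under 2000 UMIs. The libraries shared 27 barcodes, and none of these joined cells of the 2 clusters across libraries. Of the 8% of cells with the highest simulated doublet scores, 228 lay in cluster 5 (13.9% of its cells) and 13 in cluster 8 (1.05%). Levels below are UMIs per 10000 UMIs of a cluster in a library, and log2 differences are cluster 5 minus cluster 8. A lower level in such a sum can mean fewer cells with the transcript or less of it per cell, and the level alone cannot tell these apart.

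The test covered 10948 genes, of which 1781 (16.3%) were more abundant in cluster 5 and 1339 (12.2%) in cluster 8 at an adjusted p under 0.05 (edgeR's quasi-likelihood test, Benjamini-Hochberg adjustment over all genes, 2 library sums against 2). Counts of called list members over all cells are to be read against these 2 shares. The median log2 difference of all tested genes was -0.01. Every called gene kept its direction within each library, which a call from 2 sums against 2 largely requires. The clusters were drawn by the study from the same UMI counts, so these p-values show how evenly the 2 libraries repeated a difference and are not evidence independent of the clustering. DESeq2 called 1062 and 642 genes.

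**Figure D1:**
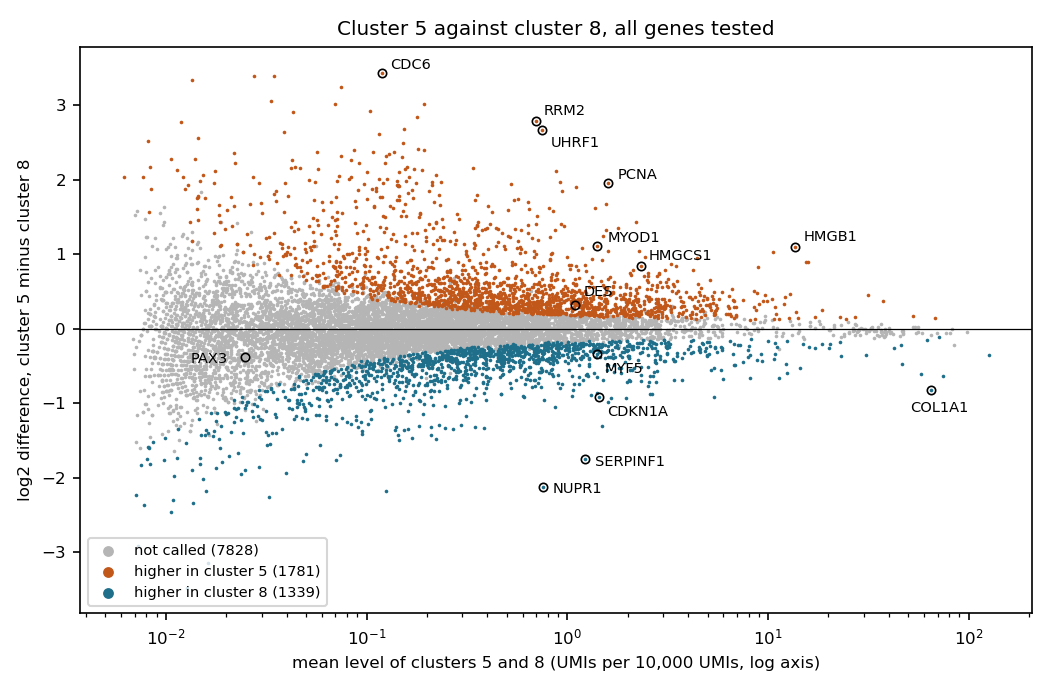
Each point is a gene tested; the horizontal axis is its mean level in clusters 5 and 8 (UMIs per 10000 UMIs, log axis) and the vertical axis its fitted log2 difference, cluster 5 minus cluster 8. Orange points (1781) were higher in cluster 5, blue points (1339) higher in cluster 8; RRM2 and UHRF1 lie far above 0, NUPR1 and SERPINF1 far below it, and PAX3 lies among the uncalled genes at a low level.

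PAX3 did not separate the clusters. It was counted 22 times in replicate 1 and 31 times in replicate 2 of cluster 5, and 17 and 30 times in cluster 8. The levels were 0.0173 and 0.0254 in cluster 5 and 0.0193 and 0.0368 in cluster 8, so replicate 2 was the higher one in both and the clusters overlapped. The log2 difference was -0.38 (standard error 0.38, adjusted p = 0.52), and with so few UMIs a difference of this size was not detectable. A PAX3 UMI was found in 2.62% of cluster 5 cells (1.90 to 3.51) and 3.38% of cluster 8 cells (2.45 to 4.55). The share was 0.741% (0.320 to 1.45) in cluster 9, which the study took as fibro-adipogenic progenitors. Its cells were deeper (median 23011 UMIs against 14502 and 13158). With every cell thinned to 5000 UMIs the shares were 0.671% in cluster 5, 1.05% in cluster 8 and 0.278% in cluster 9. Their intervals overlapped (0.336 to 1.198, 0.563 to 1.80 and 0.0573 to 0.810). These shares rest on 11, 13 and 3 cells, so the overlap does not show that they are equal. The PAX3 level of cluster 9 was 0.00282 and 0.00328 (8 UMIs), under both libraries of clusters 5 and 8. Across the 15 clusters the PAX3 level ranked first in cluster 8 (0.0280 ± 0.0124, SD, n = 2) and second in cluster 5 (0.0214 ± 0.00577). These neighbours did not differ beyond their spread, nor did cluster 7 at 0.0179 ± 0.00951, which rests on only 4 UMIs. The study took cluster 7, like cluster 9, as fibro-adipogenic progenitors. PAX7 was rarer still, with 9 and 6 UMIs in cluster 5 and 6 and 11 in cluster 8, and was too sparse to be tested.

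Over all cells, the later myogenic factors moved in opposite directions. MYOD1 stood at 1.91 and 1.93 in cluster 5 and at 0.882 and 0.902 in cluster 8, without overlap, a log2 difference of 1.11 (standard error 0.05, adjusted p = 8.9e-06). MYF5 stood at 1.21 and 1.27 in cluster 5 and at 1.64 and 1.49 in cluster 8, a log2 difference of -0.33 (standard error 0.06, adjusted p = 0.0065). Cluster 8 had the highest MYF5 level of the 15 clusters, 1.57 ± 0.109, next to cluster 1 at 1.55 ± 0.0720 and not separable from it, and the second lowest MYOD1 level, above only cluster 9. In cells thinned to 5000 UMIs, the share with MYF5 but no MYOD1 was 19.8% and 22.1% in the replicates of cluster 5 and 36.3% and 33.2% in those of cluster 8. The share with MYOD1 but no MYF5 was 26.5% and 26.4% in cluster 5 and 13.8% and 15.03% in cluster 8. A MYOD1 UMI was found in 43.9% of thinned cluster 5 cells and 26.0% of thinned cluster 8 cells, against 13.8% in cluster 9, and a MYF5 UMI in 38.3% and 46.6% against 4.26%. Unthinned, the MYOD1 shares were 67.2%, 47.1% and 38.1% in clusters 5, 8 and 9, and the MYF5 shares 67.3%, 71.6% and 17.3%.

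The MYOD1 difference changed with the cells counted as each cluster, and the cause of this change was not tested. The cells were clustered again at a finer Leiden resolution, an alternative chosen after seeing the data. The resolution was raised until clusters 5 and 8 had different best matches, each drawing most on its own cluster. That the matches lie apart is thus built in and is no independent support. The best match of cluster 5 shared 637 of its 1195 cells with cluster 5, and that of cluster 8 shared 1095 of 1698 with cluster 8. Both matches thus held cells from other deposited clusters. MYOD1 was then lower in the match of cluster 5 than in the match of cluster 8, with a log2 difference of -0.89 (adjusted p = 1.2e-05, edgeR). With clusters made from one random part of the UMIs and levels read from the rest, the MYOD1 difference was -0.00 (adjusted p = 0.98). At the planned 15 clusters, 901 of the 1641 cluster 5 cells and 1179 of the 1241 cluster 8 cells fell into one and the same Leiden cluster, so that partition gave no comparison.

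Of 16 tested satellite cell and myogenic regulators, 4 were more abundant in cluster 5 and 4 in cluster 8, with a median of 0.01. Besides MYOD1, cluster 5 had more MET, the hepatocyte growth factor receptor that activates satellite cells (log2 difference 0.43), more ITGA7, the laminin-binding integrin of muscle cells (0.38, but -0.079 and not called under the finer Leiden clusters), and more DES, the muscle intermediate filament (0.32). DES stood at 1.15 and 1.29 in cluster 5 and at 0.878 and 1.08 in cluster 8 (adjusted p = 0.040), and it too reversed, to -1.21 under the finer Leiden clusters and to -0.53 with clusters and levels from separate UMIs. Without the cells of high doublet score DES was not called (0.195, adjusted p = 0.234). Cluster 8 had more MYF5, NCAM1 (-0.27), and the MEF2 factors MEF2D (-0.43) and MEF2A (-0.22). DESeq2 called neither MEF2 gene nor MET. MYOG was low in both, at 0.122 and 0.117 in cluster 5 and 0.116 and 0.0994 in cluster 8, and was not called (0.15, adjusted p = 0.46). The other 6 tested members apart from PAX3 had no call, and VCAM1, CALCR, MEF2C and PAX7 were too sparse to test.

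Both clusters were poor in muscle transcripts. The summed level of 6 satellite cell and myoblast markers was 4.30 and 4.53 in cluster 5 and 3.43 and 3.53 in cluster 8, while among the other 13 clusters only clusters 9 (1.61) and 11 (3.29) lay as low. Fibroblast markers COL1A1, COL1A2, S100A4 and THY1 summed to 114.4 and 116.3 in cluster 5 and to 189.1 and 189.0 in cluster 8, and 4 of 4 were higher in cluster 8. Markers of fibro-adipogenic progenitors summed to 4.84 and 4.69 in cluster 5 and 6.21 and 5.92 in cluster 8, near the 5.57 of cluster 9. In clusters 5 and 8 almost all of this was LUM, and 1 of 5 tested was called. PDGFRA, the study's marker of these progenitors, stood at 0.219 ± 0.0153 in cluster 5 and 0.267 ± 0.0217 in cluster 8. In cluster 9 it stood at 1.58 ± 0.0744. DPP4 had 1 UMI in both clusters together. Smooth muscle markers summed to 7.86 and 7.82 in cluster 5 and 10.2 and 9.90 in cluster 8, with 3 of 4 higher in cluster 8. Pericyte markers reached 0.711 to 0.874, carried by NOTCH3 and CSPG4, with RGS5 at 0. Differentiated myocyte markers reached 0.253 to 0.287, with 1 of 3 tested, ACTA1, higher in cluster 8. Endothelial markers summed to at most 0.0147 and immune markers to at most 0.0193. Of the glial markers only S100B was found, at up to 0.317 in the sum. The part that other cell types may have in the differences was not tested.

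The cell cycle lists differed most. Each of the 43 S phase genes tested had a higher level in cluster 5, with a median log2 difference of 1.43 and a range from 0.49 to 3.44. Summed, they took 28.6 and 29.6 UMIs per 10000 in cluster 5 and 10.6 and 10.3 in cluster 8. Of 54 G2/M genes, 49 had a higher level in cluster 5 and none in cluster 8, with a median of 1.34 and summed levels of 33.1 and 32.7 against 14.9 and 14.9. Both sums were about as high in one library as in the other, and the clusters did not overlap. Cluster 8 had the lowest G2/M sum of the 15 clusters, 14.9 ± 0.0263, and its S phase sum of 10.4 ± 0.194 was near those of cluster 3 (10.8 ± 0.208) and cluster 1 (10.7 ± 0.0594). Cluster 5 lay in the middle for S phase, at 29.1 ± 0.684, but for G2/M its 32.9 ± 0.253 was well under the 142.2 ± 4.20 of cluster 4 and the 155.5 ± 3.54 of cluster 2.

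Genes of nucleotide supply and DNA replication were among the largest differences. RRM2, the small subunit of the ribonucleotide reductase that makes deoxynucleotides, was measured at 1.198 and 1.23 in cluster 5 and at 0.178 and 0.174 in cluster 8, a log2 difference of 2.79 (standard error 0.07, adjusted p = 2.3e-06). UHRF1, which brings the maintenance methyltransferase to newly copied DNA, was measured at 1.32 and 1.28 against 0.196 and 0.214, a log2 difference of 2.67. The replicative helicase subunits MCM3, MCM5 and MCM4 differed by 2.12, 1.90 and 1.85. PCNA, the sliding clamp of the polymerases, was found at 2.46 and 2.58 in cluster 5 and at 0.664 and 0.642 in cluster 8, a log2 difference of 1.95. CDC6, which loads the helicase onto origins, had the largest difference of the S phase list, 3.44, from 278 and 265 UMIs in cluster 5 and 15 and 19 in cluster 8. The checkpoint mediator CLSPN and the exonuclease EXO1 differed by 3.02 each. In all, 42 of 44 replication genes were higher in cluster 5 (median 1.52), and 17 of 19 nucleotide synthesis genes were (median 0.67), with RRM1 at 1.32 and TK1 at 1.34. None of these was higher in cluster 8. Both lists share members with the S phase list, among them PCNA, CDC6, RRM1 and RRM2, so the counts overlap.

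**Figure D2:**
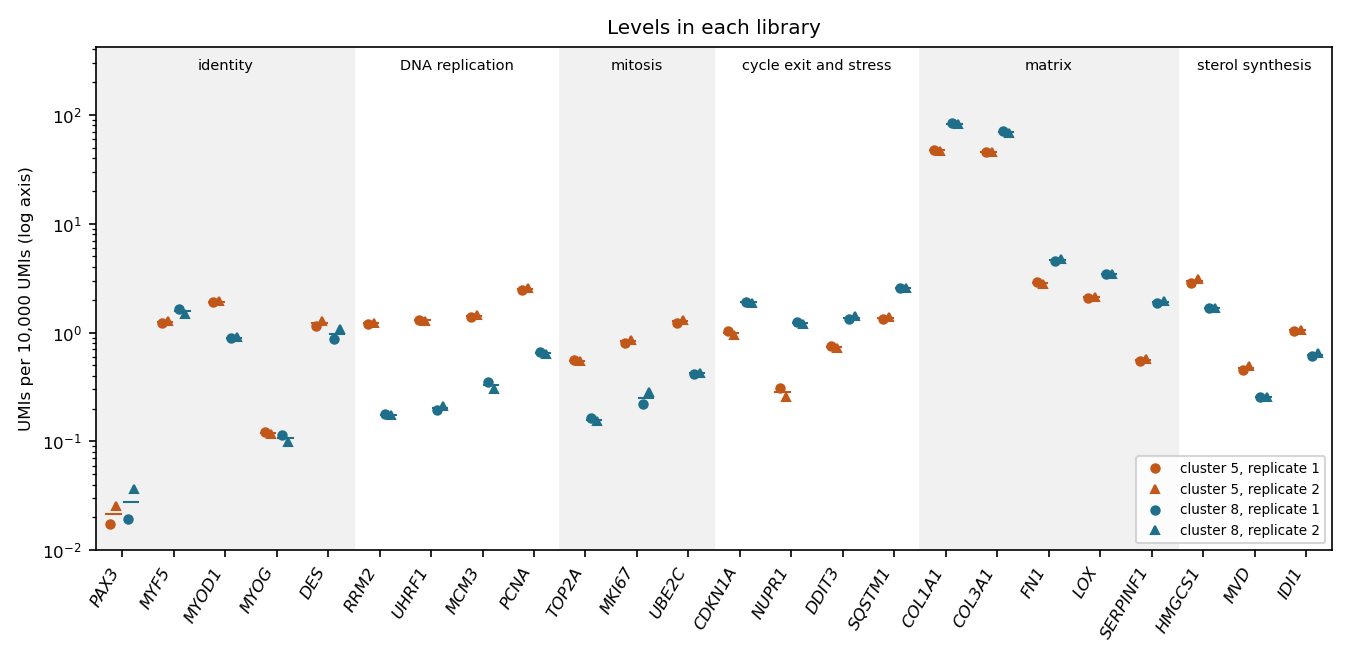
Levels of 24 genes in each library (UMIs per 10000 UMIs, log axis), orange for cluster 5 and blue for cluster 8, circles for replicate 1 and triangles for replicate 2, with a bar at the mean of the 2 replicates. The clusters overlap for PAX3, while for RRM2 both replicates of cluster 5 lie near 1.2 and both of cluster 8 near 0.18.

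Genes of mitosis and of chromatin followed the same direction. MKI67, the proliferation marker coating mitotic chromosomes, differed by 1.73, TOP2A, which untangles sister chromatids, by 1.80, CENPF, a kinetochore protein, by 1.62, and UBE2C, the ubiquitin carrier of the anaphase-promoting complex, by 1.59. The spindle protein DLGAP5 led the G2/M list at 2.40, with CDC20 at 2.06 and the kinesin KIF2C at 2.05. Condensin subunit SMC2 differed by 1.97 and the nuclear envelope protein LMNB1 by 1.63. Of 14 chromatin genes, 13 were higher in cluster 5, among them the histone chaperones ASF1B (2.22) and NASP (1.43). By absolute level, large gains were those of HMGB1, an abundant chromatin protein (18.9 and 18.2 against 8.82 and 8.55), HSP90AA1, PTMA and TUBA1B. These belong to families with similar copies, and only uniquely mapped reads were counted, so reads that fit several copies can be missing. In addition, 2 annotated genes carry the symbol PTMA. The levels of the single genes are therefore uncertain. An unnamed gene, ENSBTAG00000012184, was also among the 12 largest, at 1.68.

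Regulators of the cycle were split. Of 16 tested cyclins, kinases and E2F factors of the G1 to S step, 13 were more abundant in cluster 5 and none in cluster 8, among them E2F8 at 3.24, CCNA2 at 2.23, CCNE2 at 1.98 and E2F1 at 1.77. Of 17 inhibitors, RB family members and p53 targets, 3 (17.65%) were more abundant in cluster 5 and 6 (35.29%) in cluster 8. Over all genes tested the shares were 16.3% and 12.2%. CDKN1A was measured at 1.04 and 0.958 in cluster 5 and at 1.92 and 1.85 in cluster 8, a log2 difference of -0.92 (standard error 0.06, adjusted p = 4.0e-05). A CDKN1A UMI was present in 33.2% of thinned cluster 5 cells, 50.2% of thinned cluster 8 cells and 19.1% of thinned cluster 9 cells (62.5%, 78.4% and 51.2% unthinned). Among the 15 clusters, the CDKN1A level of cluster 8 ranked only number 6, at 1.89 ± 0.048. Clusters 3 (1.71 ± 0.062) and 1 (1.68 ± 0.0031) lay not far below it, and cluster 12 (9.615 ± 0.80) far above. The p53 targets MDM2 (-0.43), CCNG1 (-0.38) and SESN1 (-0.69) were higher in cluster 8, while CDKN2C, an inhibitor of CDK4 and CDK6, was higher in cluster 5 (0.78). SESN1 lost its call under DESeq2 (adjusted p = 0.203), with thinning, under the finer Leiden clusters (-0.39) and with separate UMIs (-0.040), and CCNG1 was at -0.013 (adjusted p = 0.978) among cells of similar cell cycle level.

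The cells of cluster 5 were spread over a wide range. The S phase list took a median of 26.2 and 27.6 UMIs per 10000 of a cell in cluster 5 and 8.48 and 8.04 in cluster 8, and the 5th and 95th percentiles over both libraries were 9.02 and 54.2 in cluster 5 and 3.08 and 24.9 in cluster 8. For the G2/M list the medians were 28.2 and 27.6 against 12.6 and 12.5. With cells thinned to 5000 UMIs, which left out 2 cells of cluster 5 and 8 of cluster 8, 47.6% and 49.7% of cluster 5 cells had more S phase UMIs than the 95th percentile of cluster 8 (13 UMIs). For G2/M UMIs the shares above the same percentile were 38.7% and 39.4%. The remaining cells of cluster 5 lay at or under that percentile for the list in question. Even so, the unthinned lower quartile of cluster 5 was above the upper quartile of cluster 8. Over both libraries these were 17.15 and 12.77 UMIs per 10000 for S phase, and 20.57 and 16.85 for G2/M.

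**Figure D3:**
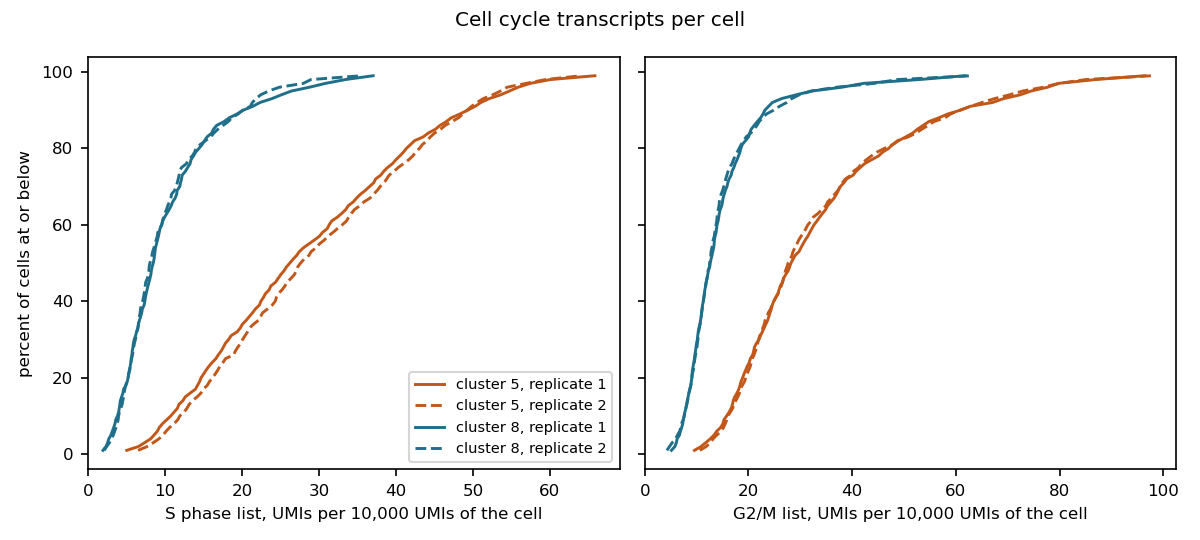
Percent of cells (vertical axis) at or below a summed level of the S phase list (left) or the G2/M list (right) in UMIs per 10000 UMIs of the cell, for cluster 5 (orange) and cluster 8 (blue), replicate 1 solid and replicate 2 dashed. The S phase medians are 26.2 and 27.6 in cluster 5 and 8.48 and 8.04 in cluster 8, and the 2 replicates nearly coincide.

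Cluster 8 was richer in extracellular matrix. Of 18 tested collagen genes, 12 were more abundant in cluster 8 and 0 in cluster 5 (median -0.58), and the summed collagen level was 165.7 and 167.9 in cluster 5 and 264.6 and 263.2 in cluster 8. COL1A1, a chain of type I collagen, took 47.8 and 46.7 UMIs per 10000 in cluster 5 and 84.3 and 82.2 in cluster 8, a log2 difference of -0.81 (standard error 0.03, adjusted p = 7.8e-06). COL1A2 and COL3A1 differed by -0.63 and -0.60, COL11A1 by -0.85, COL14A1 by -0.79 and COL5A2 by -0.72. Among the 15 clusters, the COL1A1 level of cluster 8 was second to that of cluster 7 (146.7 ± 2.39), in which only 12 cells held 5000 or more UMIs. Of 27 other matrix proteins, proteases and inhibitors, 14 were more abundant in cluster 8 and 1 in cluster 5. They included fibronectin FN1 (2.92 and 2.81 against 4.56 and 4.704, log2 difference -0.69), the collagen crosslinkers LOX (-0.71) and LOXL2 (-0.64), the protease inhibitor TIMP3 (-0.83) and SPARC (-0.47). VIM, the intermediate filament of mesenchymal cells, was also higher in cluster 8 (-0.35). SERPINF1, a secreted antiangiogenic serpin, was measured at 0.553 and 0.569 in cluster 5 and at 1.85 and 1.93 in cluster 8, a log2 difference of -1.75 (standard error 0.05, adjusted p = 4.2e-06). Its level in cluster 8 was the highest of the 15 clusters, before 0.620 ± 0.0208 in cluster 1.

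Of 12 tested integrins, 4 were higher in cluster 8, among them ITGB5 (-0.73), ITGB3 (-0.68) and ITGAV (-0.50), and 1, ITGA7, was higher in cluster 5. ITGAV was not called by DESeq2 (adjusted p = 0.0828) or with thinning (-0.39, adjusted p = 0.135, edgeR). Of 19 stress fibre and SRF or YAP target genes, 8 were more abundant in cluster 8 and 2 in cluster 5, with LMOD1 at -1.37, TPM2 at -0.41 and CALD1 at -0.40. The summed level of that list hardly differed, with means of 201.5 in cluster 5 and 200.9 in cluster 8. Of 18 tested muscle structure genes, ENO3 (0.78), NEB (0.34) and ACTC1 (0.23) were higher in cluster 5 and ACTA1 (-0.49) in cluster 8. These were 16.7% and 5.56% of the list, near or under the 16.3% and 12.2% of all genes tested. Under the finer Leiden clusters NEB and ACTC1 were lower in the match of cluster 5, at -1.29 and -0.48, and ENO3 was level, at -0.017. Without the cells of high doublet score, which were more frequent in cluster 5, NEB (0.20, adjusted p = 0.141) and ACTC1 (0.050, adjusted p = 0.729) were not called. DESeq2 did not call NEB, ACTC1 or ACTA1.

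The largest difference on the cluster 8 side, among genes at 1 UMI per 10000 or more, was that of NUPR1, a stress-induced chromatin regulator. It was measured at 0.306 and 0.257 in cluster 5 and at 1.24 and 1.21 in cluster 8, a log2 difference of -2.12 (standard error 0.09, adjusted p = 7.3e-06). A NUPR1 UMI was found in 11.9% of thinned cluster 5 cells, 38.2% of thinned cluster 8 cells and 6.85% of thinned cluster 9 cells (26.3%, 61.8% and 23.1% unthinned). No other cluster came near the 1.23 ± 0.0225 of cluster 8, the next being cluster 4 at 0.310 ± 0.00933. DDIT3, a transcription factor of the unfolded protein and amino acid responses, was found at 0.746 and 0.719 in cluster 5 and at 1.34 and 1.41 in cluster 8 (-0.90). The autophagy receptor SQSTM1 differed by -0.93, the mitochondrial folate enzyme ALDH1L2 by -0.98, and SAT1, which acetylates polyamines, by -1.30. SYT4 (-1.05), VAT1 (-0.93), RAB13 (-0.91) and the decoy receptor TNFRSF6B (-0.88) completed the 12 largest, together with CDKN1A, SERPINF1 and the glutathione transferase GSTM1 (-0.96). A second gene under the symbol GSTM1 was not called. Reads that fit both copies can be missing from either level, so the levels of these copies are uncertain.

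Chaperones were mixed and sterol synthesis was on the side of cluster 5. Of 19 chaperone genes, 8 were more abundant in cluster 5 and 3 in cluster 8. The cytosolic chaperone HSPA8 was higher in cluster 5 (0.46), while HSPA5, the chaperone of the endoplasmic reticulum, was measured at 8.04 and 7.75 in cluster 5 and at 10.8 and 10.6 in cluster 8 (-0.44). Of 22 tested genes of cholesterol synthesis and uptake, 17 were more abundant in cluster 5 and none in cluster 8 (median 0.46). HMGCS1, the enzyme before the rate-limiting step, was measured at 2.86 and 3.10 in cluster 5 and at 1.67 and 1.67 in cluster 8, a log2 difference of 0.84 (standard error 0.05, adjusted p = 3.4e-05). MVD differed by 0.89, IDI1 by 0.74 and NSDHL by 0.67. The summed level of the list was the lowest of the 15 clusters in cluster 8, at 9.46 ± 0.0400, against 13.7 ± 0.599 in cluster 5. Of 16 glycolysis genes, 9 were more abundant in cluster 5 and none in cluster 8, by small amounts, with PFKP at 0.45 and LDHA at 0.43. Ribosomal protein genes were nearly level, with 5 of 84 higher in cluster 5 and 2 in cluster 8, and RPL4 at 0.20.

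**Figure D4:**
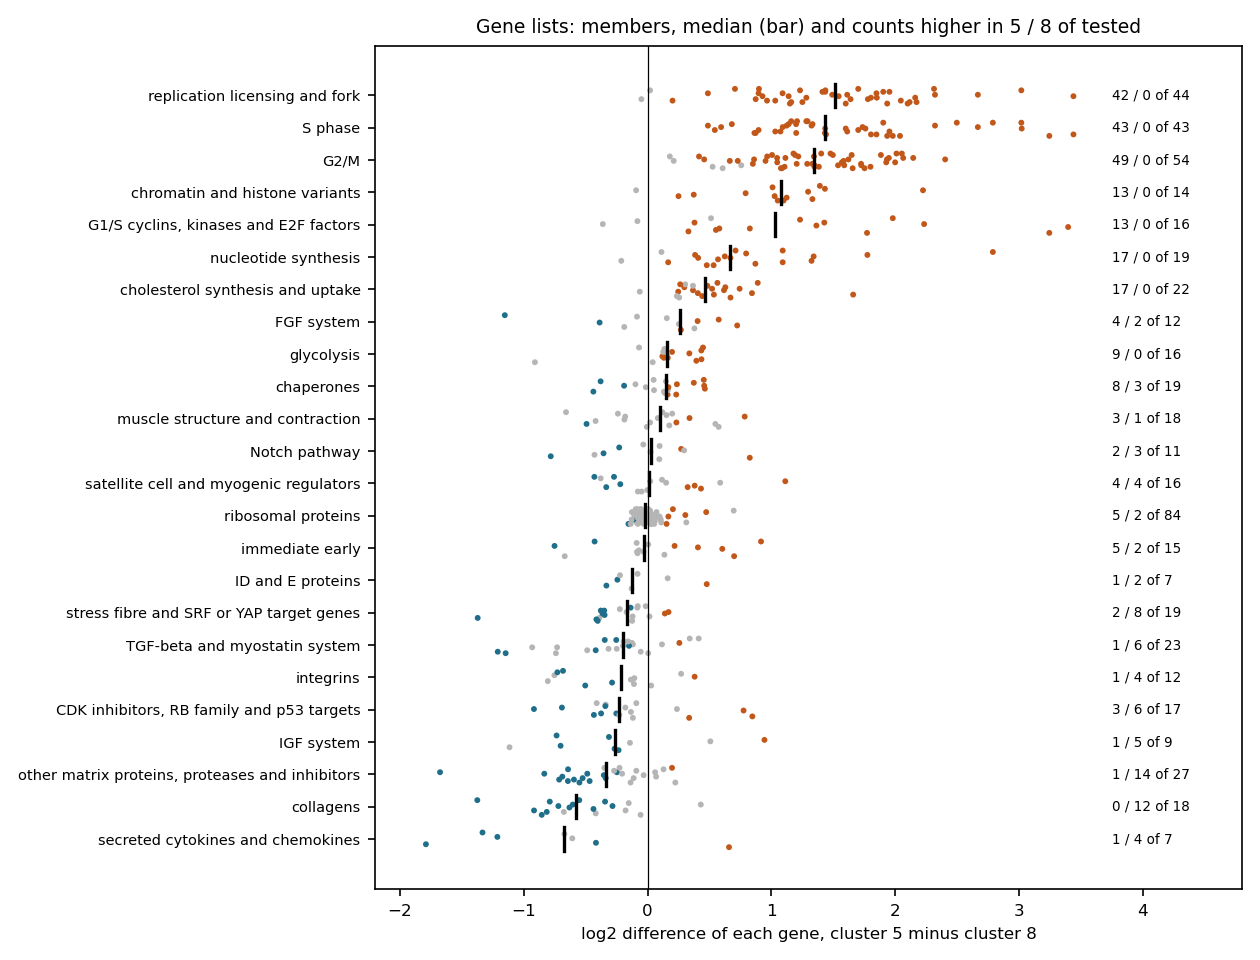
Each point is a tested gene of a list, placed by its fitted log2 difference, cluster 5 minus cluster 8 (orange called higher in cluster 5, blue called higher in cluster 8, grey not called); bars are list medians and the numbers give the members higher in 5 / 8 of those tested. S phase genes lie wholly on the cluster 5 side (43 of 43), and collagens mostly on the cluster 8 side (12 of 18).

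Among growth factor systems, members of one family differed in direction. IGFBP3, an IGF-binding protein, was higher in cluster 5 (1.08 and 1.08 against 0.581 and 0.548, log2 difference 0.94), while 5 other members of the 9 tested were higher in cluster 8, including IGFBP4 (-0.73), IGFBP2 (-0.70) and IGFBP6 (-0.31). The IGFBP3 difference reversed to -0.58 under the finer Leiden clusters. In the FGF system, the receptor FGFR4 (0.40) and the ligand FGF7 (0.27) were among 4 of 12 genes higher in cluster 5, and the receptor FGFR1 (-0.39) and the ligand FGF2 (-1.15) were higher in cluster 8. FGFR4 likewise reversed under the finer Leiden clusters, at -1.42, and was not called without the cells of high doublet score (0.24, adjusted p = 0.234). FGFR1 and FGF2 lost their calls under the finer Leiden clusters (-0.025 and -0.36) and with separate UMIs (-0.14 and -0.19). DESeq2 called neither FGFR1 (adjusted p = 0.173) nor FGFR4 (adjusted p = 0.0942). Of 23 tested genes of the TGF-beta and myostatin system, 6 were higher in cluster 8, including the ligand TGFB2 (-0.42) and the latent binding protein LTBP2 (-0.35, but -0.031 and not called under the finer Leiden clusters), and 1 in cluster 5. LTBP2 was not called by DESeq2 either (adjusted p = 0.161).

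The Notch ligands JAG1 and DLL1 differed in direction over all cells, but neither kept its call in every setting. JAG1 was measured at 0.206 and 0.222 in cluster 5 and at 0.363 and 0.374 in cluster 8 (log2 difference -0.78, adjusted p = 0.00037), and the receptor NOTCH3 differed by -0.36. DLL1, another ligand, was measured at 0.0989 and 0.103 against 0.0532 and 0.0613 (0.83, adjusted p = 0.0059), but its sign changed to -0.20 under the finer Leiden clusters. JAG1 lost its call there too, at -0.086 (adjusted p = 0.475, edgeR). DLL1 was also not called by DESeq2 (adjusted p = 0.0605) or with separate UMIs (0.16, adjusted p = 0.615, edgeR). Among cells of similar cell cycle level neither ligand was called. In all, 2 of 11 Notch genes (18.2%) were more abundant in cluster 5 and 3 (27.3%) in cluster 8. Over all genes tested the shares were 16.3% and 12.2%. ID1, an inhibitor of myogenic factors, was higher in cluster 5 (10.2 and 10.2 against 7.33 and 7.36, log2 difference 0.48), and its relative ID3 was higher in cluster 8 (-0.33). Of 15 immediate early genes, 5 were higher in cluster 5, with FOSL1 at 0.92 and EGR1 at 0.60, and 2 in cluster 8, with KLF4 at -0.75. Of 7 cytokines and chemokines tested, CSF1 was more abundant in cluster 5 (0.66) and 4 in cluster 8. Among these 4 was CXCL5 (-1.33, but 0.095 and not called under the finer Leiden clusters). Summed over the whole list, the level was higher in cluster 5, at 3.46 and 3.61 against 2.72 and 2.88.

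Cells with the same load of cell cycle transcripts were compared next. The window ran from the 10th percentile of cluster 5 to the 90th percentile of cluster 8 in summed S phase and G2/M level, 32.7 to 43.2 UMIs per 10000, and held 212 cells of cluster 5 and 155 of cluster 8. It was chosen after seeing the data. The test covered 7758 genes there, and 124 (1.6%) were more abundant in cluster 5 and 144 (1.86%) in cluster 8, and 120 and 142 of these were called in the same direction over all cells. The UMI sums there ran from 912795 to 1721087, against 8151149 to 12735621 over all cells, so fewer genes could be called. Some differences outside the S phase and G2/M lists also shrank, such as MCM3 (2.12 to 0.32), TK1 (1.34 to 0.082) and LMNB1 (1.63 to 0.20). Others, such as SERPINF1 (-1.75 to -1.99) and HMGCS1 (0.84 to 1.01), did not. The part of depth and of smaller differences in the drop of calls was not tested. Of the genes called over all cells and fitted in the window, 82.4% of those higher in cluster 5 kept their direction. For those higher in cluster 8 the share was 92.7%. The window cells are a part of the same cells that gave these calls, so agreement in direction is partly built in. The S phase and G2/M lists define the window, and their medians fell to 0.00 and -0.07. The cholesterol list kept a median of 0.50 with 4 of 19 called, the collagens kept -0.53 with 5 of 12 called, and the other matrix genes kept -0.36 with 11 of 25 called, all on the same side as over all cells. Single genes called there included SERPINF1 (-1.99, adjusted p = 3.1e-06), COL1A1 (-0.71, adjusted p = 1.3e-06), NUPR1 (-1.60, adjusted p = 0.00031), SQSTM1 (-0.76, adjusted p = 0.0012), IGFBP4 (-0.94, adjusted p = 0.0013), HMGCS1 (1.01, adjusted p = 0.00056) and MYOD1 (0.68, adjusted p = 0.0080). CDKN1A was just called (-0.53, adjusted p = 0.044), and DDIT3 was not (-0.71, adjusted p = 0.085). MYF5 was not called there either (-0.081, adjusted p = 0.832, edgeR).

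**Figure D5:**
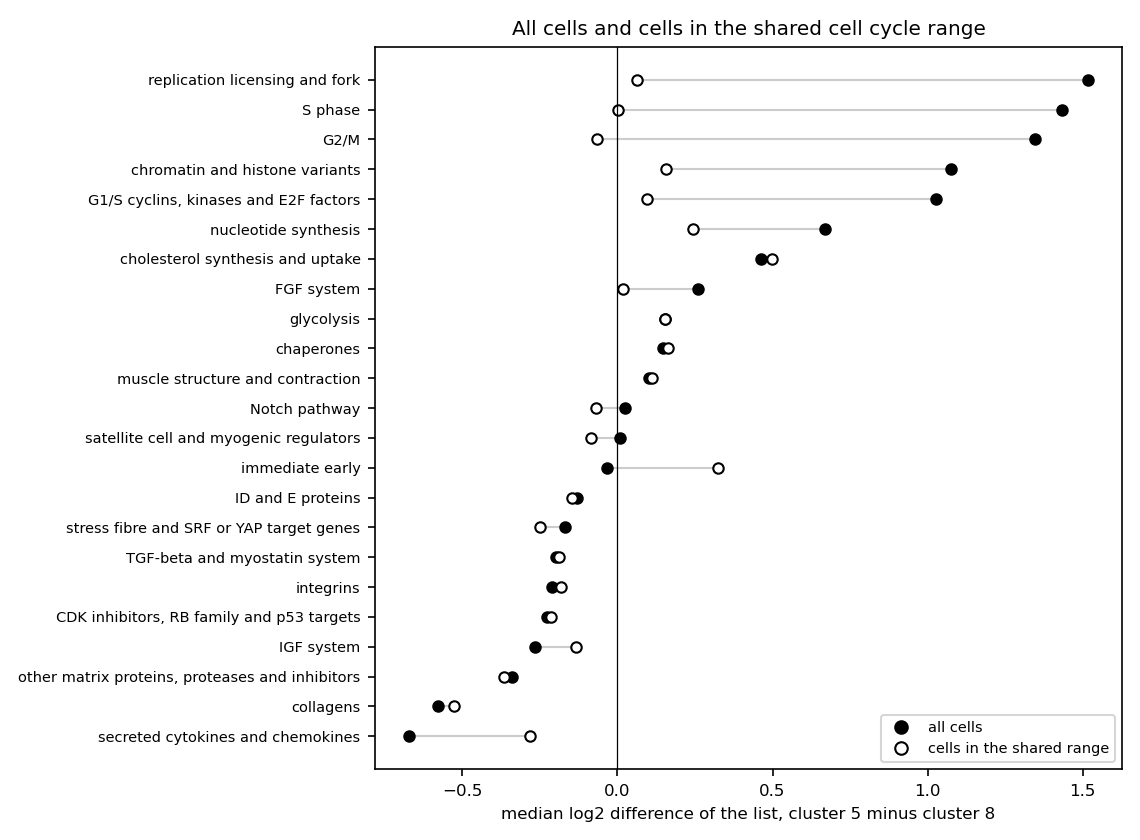
Median log2 difference of each gene list, cluster 5 minus cluster 8, over all cells (filled) and over the 212 and 155 cells in the shared cell cycle range (open). The S phase median moves from 1.43 to 0.00, while the cholesterol median stays near 0.5 and the collagen median stays between -0.6 and -0.5.

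Clusters were also made from one random part of each cell's UMIs, with levels and tests taken from the other part. The matches were picked by their overlap with the deposited clusters, which the study drew from all UMIs of the same cells. Likeness to the main comparison is therefore partly built in and is no independent support. The match of cluster 5 shared 644 of its 1346 cells with cluster 5, and the match of cluster 8 shared 1179 of 1991 with cluster 8. Of 10236 genes tested there, 1632 (15.9%) were more abundant in the cluster 5 match and 1413 (13.8%) in the cluster 8 match. Among them, 41 of 43 S phase genes, 50 of 54 G2/M genes and 20 of 22 cholesterol genes were higher in the cluster 5 match, and 8 of 18 collagens and 15 of 27 other matrix genes were higher in the cluster 8 match. NUPR1 differed by -2.92, SERPINF1 by -2.67 and COL1A1 by -1.33. The regulator list did not keep its balance, with 0 of 15 higher in the cluster 5 match and 5 in the cluster 8 match.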

How the data were processed

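The deposited matrix held UMI counts per gene and cell. The authors made these counts with Cell Ranger 3.0.2 from 10x 3′ libraries, using uniquely mapped reads, the bovine assembly ARS-UCD1.2 and its Ensembl gene models, and combined 2 libraries at equal mapped reads per cell. The barcode suffix was taken as the library. The deposited cluster averages were multiplied back to whole UMI sums, and the cells of each of the 15 clusters were solved from these sums. The deposited columns of the authors' own fold changes and p-values were not used. UMIs were then summed per library and cluster (4 sums), filtered with filterByExpr, normalized by TMM and tested with edgeR 4.0.16 (R 4.3.3) by its quasi-likelihood test, with Benjamini-Hochberg adjustment. DESeq2 1.42.0, other normalization, filters, cell sets and reclustering with scanpy 1.11.5 were alternatives. The script was tested on simulated data with known changes, where it recovered 85.5% of 200 genes changed 2-fold among 10948. It made 22 false calls there, 11.4% of its calls, which is more than the nominal rate. Smaller changes, which many called genes have, and a larger share of changed genes were not simulated, so these rates need not hold for the calls above.

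The members and gene lists were chosen with earlier results of these data known. Genes were named by a rule: the myogenic regulators, the 12 called genes per direction with the largest log2 difference at 1 UMI per 10000 or more in the higher cluster, the 5 per direction with the largest difference in level, up to 4 called genes of each list at 0.1 UMI per 10000 or more, and further members by role (TOP2A, MKI67, SESN1 and FGF2). A gene that the rule names is not reported here. No genes named as mitochondrially encoded were found by symbol. Doublet scores came from Scrublet, run per library, whose own threshold called only 0 and 6 cells, so the cells with the top 8% of scores were left out instead. Library totals were 145631299 and 137818568 UMIs. Same-numbered sums come from one library, and their deviations from the cluster means correlated at 0.40, so the libraries pair the sums. With the library as a replicate block the calls rose to 2521 genes higher in cluster 5 and 2158 higher in cluster 8. The block adds a coefficient to a fit of 4 sums, so little of each gene's own spread is left. Its calls rest largely on the spread shared over all genes, and the rise is no stronger evidence.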

Additional observations from a re-analysis of the deposited data

How the results depend on the processing

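The counts of 1781 genes higher in cluster 5 and 1339 higher in cluster 8 changed most with the cells admitted. Among cells at or under the median cell cycle level of cluster 8, which left 29 cells of cluster 5 against 621 of cluster 8, they were 134 and 126, and in the shared cell cycle range 124 and 144. Both sets held far fewer UMIs, down to 155437 in a cluster 5 sum of the low set, so fewer genes could be called. Some differences also shrank in both sets, and the part of each in the drop was not tested. DESeq2 gave 1062 and 642, with 1274 genes left without an adjusted p, and thinning to 5000 UMIs gave 1100 and 860. With the library as a replicate block, which leaves little of each gene's own spread to the fit, 2158 genes were higher in cluster 8. All 1781 and all 1339 genes were called there too. Leaving out 1 of the 4 sums, where the lone sum is assumed to vary like the others, gave 1202 to 1441 genes and 878 to 1059 genes, the 878 without cluster 8 replicate 1. The other settings stayed within 1.5 times. PAX3 was called under no setting, and leaving out single sums moved it from -0.77 to 0.14, the latter without cluster 8 replicate 2. No value was obtained for PAX3 in the thinned and cell cycle sets, or from Leiden clustering at 15 clusters.

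The S phase ratio of 1.48 moved to 1.32 with cells assigned by profile, 1.21 with finer Leiden clusters, 1.18 with clusters and levels from separate parts of the UMIs, 0.23 among cells of low cell cycle level and 0.051 in the shared range. The G2/M ratio of 1.14 moved to 1.17, 1.09, 1.19, 0.13 and 0.032 in the same order, to 1.115 without high doublet scores, 1.16 with thinning and 1.13 with the second part of the UMIs alone. The low and shared ranges are set by these lists.

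Of 123 called genes named in the text, 46 kept their call in every refit that gave them a value, and 100 did so when the 2 sets of cells chosen by cell cycle level were left aside. The changes of sign were as follows. Finer Leiden clusters gave MYOD1 -0.89, MYOG -0.029, DES -1.21, ITGA7 -0.079, IGFBP3 -0.58, FGFR4 -1.42, DLL1 -0.20, CXCL5 0.095, ENO3 -0.017, NEB -1.29 and ACTC1 -0.48. Clusters from separate UMIs gave MYOD1 -0.0025, DES -0.53, IGFBP3 -0.11, FGFR4 -0.20, NEB -0.37 and ACTC1 -0.40. The low cell cycle set gave MYF5 0.039, MYOG -2.08, DES -0.48, RRM2 -0.81, SMC2 -0.57, CENPF -0.43, ACACB -0.63, HSPA5 0.16, FGFR4 -0.27, FGFR1 0.28, NEB -0.0034, ACTA1 0.0196 and TOP2A -2.21. The shared range gave MYOG -0.024, MET -0.061, SMC2 -0.34, CENPF -0.058, ACACB -0.019, DLGAP5 -0.51, MDM2 0.062, MKI67 -0.0495 and TOP2A -0.17. None of the last 2 sets of reversals was called, and their cause was not tested.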

Other observations

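Further gene groups were set up after the values had been seen, so their counts are descriptions and carry no test of the group. Of 23 genes linked to ATF4, the transcription factor of the amino acid response, 15 were more abundant in cluster 8 and 0 in cluster 5 (median log2 difference -0.29). VLDLR, a lipoprotein receptor, differed by -1.31, the stress sensor SESN2 by -1.03, the transcription factor ATF5 by -0.87 and the pseudokinase TRIB3 by -0.76. Of 29 lysosome and autophagy genes, 22 were more abundant in cluster 8 and 0 in cluster 5 (median -0.30), with GABARAPL1 at -0.62, the protease CTSK at -0.58 and the sphingolipid activator PSAP at -0.41. Of 15 antioxidant genes linked to NRF2, 8 were more abundant in cluster 8 and 0 in cluster 5, with HMOX1, which degrades heme, at -0.82 and the iron store subunit FTH1 at -0.35.

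On the side of cluster 5, 7 of 10 tested fatty acid synthesis genes were higher and 0 were lower. ACACB, an acetyl-CoA carboxylase, was measured at 1.03 and 1.06 in cluster 5 and at 0.383 and 0.350 in cluster 8 (log2 difference 1.51). FASN, the fatty acid synthase, differed by 0.81 and the desaturase SCD by 0.89. In the shared cell cycle range ACACB was at -0.019 (adjusted p = 0.977, edgeR). FASN was at 0.75 there and still called, and SCD was at 0.71 and not called. Of 13 nucleolar genes, 12 were higher in cluster 5, with NOLC1 at 0.85, DKC1 at 0.75 and NCL at 0.46, while the ribosomal protein genes themselves were nearly level. Of 11 tested tubulins and microtubule regulators, 8 were higher in cluster 5, led by TUBA4A at 1.51 and the microtubule destabilizer STMN1 at 0.95.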
